A study of Mus musculus with 12 samples.

Results

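The 10 genes described here are classical feedback regulators and transcriptional targets of the FGF-ERK pathway: Spry1, Spry2, Spry4, Spred1, Dusp4, Dusp5, Dusp6, Etv4, Etv5 and Egr1. They were picked by symbol, with earlier results of these data known, and are 10 of the 22878 gene symbols in the deposited tables. Each has 1 RefSeq transcript model there, and all 10 passed the filter on low values in every comparison. The RNA came from embryonic stem (ES) cells of the mouse. There were 3 genotypes: wild type (WT), a knockout of SUV420H2 (KO), and a line whose label gives a knockout of SUV420H1 as well (DKO). The enzymes methylate lysine 20 of histone H4, and the trimethyl form marks constitutive heterochromatin. Each genotype had 2 libraries of ES cells and 1 library each at day 8 and day 12 of differentiation, 12 libraries in all. All groups share a culture step on gelatin with 1.5 µM of a GSK3 inhibitor over several passages, which took away the feeder cells. The labels give neither the differentiation protocol, nor the strain or sex of the lines, nor the number of clones per genotype, nor whether paired ES libraries were separate cultures. The p-values therefore measure the spread between these libraries, which may be technical, and genotype cannot be told apart from line.

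FGF ligands bind receptor tyrosine kinases, which activate RAS, RAF, MEK and finally the kinase ERK. ERK induces its own brakes: Sprouty and Spred proteins act on the steps up to RAS and RAF, and dual-specificity phosphatases (DUSPs) remove the activating phosphates from ERK itself. In mouse ES cells autocrine FGF4 drives this pathway and favours exit from the naive pluripotent state, so the transcripts of these genes are widely read as a record of ERK output.

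Reads counted in genes ranged from 22542052 to 26677968 per library. Levels below are CPM, read counts relative to library size after TMM scaling over the 12 libraries, and fold changes are log2 values from edgeR's quasi-likelihood test, with Benjamini-Hochberg adjustment over all genes tested and called at an adjusted p under 0.05. Suv420h2 was at 112 to 126 CPM in the WT libraries and at 15.0 to 39.5 CPM in the KO and DKO libraries. Suv420h1 was at 60.3 to 84.0 CPM in the libraries labelled DKO against 44.7 to 55.2 CPM in WT, so its counts were not lower. Reads over the whole transcript cannot show the loss of an exon, so the label could not be checked for this gene. "DKO" below means that label. All 10 ES cell markers on the list were detected in every library. Their summed level in ES cells was 11502 and 11396 CPM (WT), 8575 and 9293 CPM (KO) and 9651 and 8474 CPM (DKO), so both WT libraries were above every mutant. That order rested on Zfp42, at 2614 and 2476 CPM (WT) and 233 to 306 CPM (mutants). Without Zfp42 the WT and mutant sums overlapped. Nanog had 395 and 422 CPM (WT), 1124 and 1083 CPM (KO) and 208 and 183 CPM (DKO). Esrrb had 1465 and 1495 CPM (WT) against 2490 and 2548 CPM (DKO), and Klf4 had 742 and 734 CPM (WT) against 1881 and 1295 CPM (DKO). The part of these shifts in the values of the 10 genes was not tested. The sums after differentiation were 808 and 928 CPM (WT, day 8 and day 12), 5169 and 2231 CPM (KO) and 8902 and 4200 CPM (DKO). In WT the day 12 sum was mostly Klf4, at 55.1 CPM on day 8 and 622 CPM on day 12, while the other 9 markers were lower on day 12 than on day 8. Pou5f1, which encodes Oct4, then stood at 114 and 56.1 CPM (WT), 1050 and 409 CPM (KO) and 1788 and 943 CPM (DKO). These are bulk libraries, in which fewer cells of a type and less RNA per cell cannot be told apart.

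In KO ES cells 7 of the 10 genes were lower than in WT and none was higher; 42.7% of the 12046 genes tested were called in either direction and 19.2% were called lower. The genes that fell were Spry2, Spry4, Spred1, Dusp4, Dusp6, Etv4 and Egr1. The median log2 fold change was -1.16 over the 10 genes and -0.01 over all genes tested. In DKO ES cells the set split, with Spry2, Dusp4, Dusp5 and Dusp6 higher and Spry1, Spry4, Etv4, Etv5 and Egr1 lower than in WT, against 63.8% of all genes called (32.2% higher and 31.6% lower). Directly between the mutants, 7 genes were higher and 2 lower in DKO than in KO, against 67.3% of all genes called (33.2% higher and 34% lower). The 3 comparisons share libraries in pairs, so their directions are not independent of each other. All 7, 9 and 9 calls held when any 1 of the ES libraries was left out and under every other setting tried. Feeder and mesenchyme markers (11 genes) summed in ES libraries to 21.7 and 21.8 CPM (WT), 31.3 and 39.9 CPM (KO) and 5.2 and 8.6 CPM (DKO); Thy1 and Fbln2 made up most of these sums in WT and KO, and Postn, Lum and Dcn were at or near 0. Primitive and visceral endoderm markers (11 genes) summed to 28.1 and 30.0 CPM (WT), 41.8 and 36.5 CPM (KO) and 209.5 and 162.0 CPM (DKO) in ES libraries. Neural markers (7 genes found) summed to 361 and 371 CPM, 529 and 649 CPM, and 653 and 584 CPM in that order. Of the DKO sum Sox1 gave 488 and 439 CPM, against 22.1 and 22.9 CPM in WT, while Tubb3 (127 and 101 CPM against 261 and 272 CPM), Nes and Pax6 were lower in DKO than in WT. Blood and endothelium markers (8 genes) summed to 102 and 100.3 CPM (WT), 215 and 195 CPM (KO) and 113 and 112 CPM (DKO), of which Pecam1 gave 85.6 and 83.5 CPM, 206 and 185 CPM, and 101 and 100.1 CPM. The mesoderm and cardiac sums were 34.0 to 44.1 CPM in all ES libraries. The part of these marker differences in the values of the 10 genes was not tested.

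**Figure D1:**
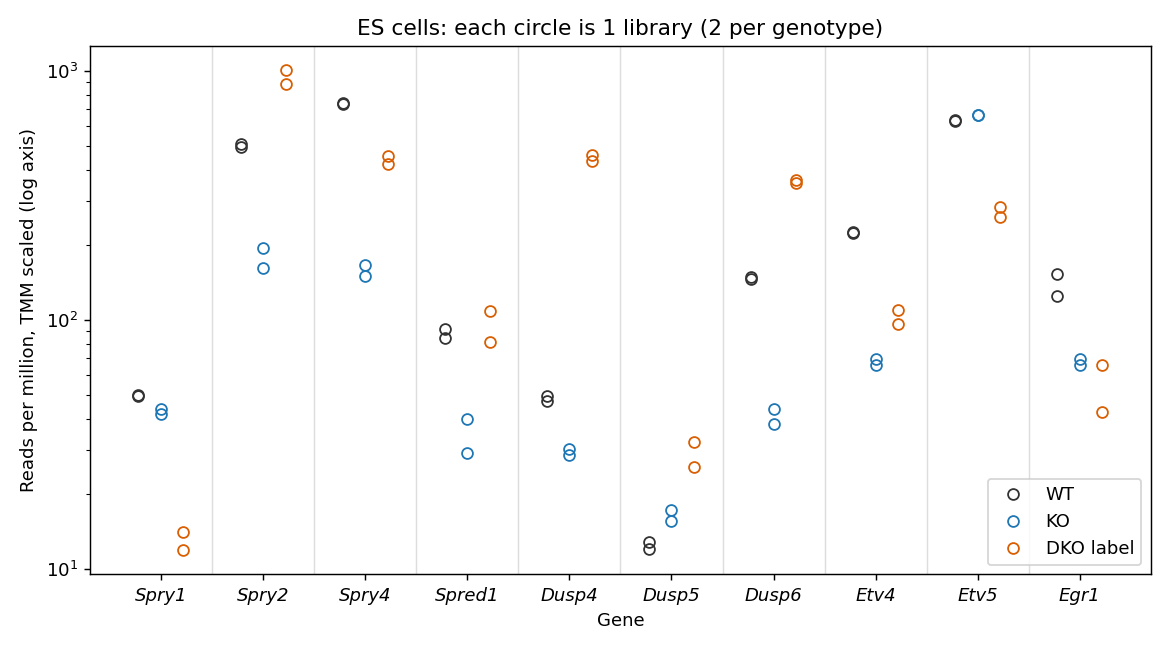
Level of each of the 10 genes in the 6 ES libraries, in CPM on a log axis; each circle is 1 library. KO circles lie below WT for 8 genes, and DKO circles lie above WT for Spry2, Dusp4, Dusp5 and Dusp6.

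The promoter windows of Dusp6, Spry2 and Dusp5 are shown because, of the windows read, they hold the pathway motifs that were searched for. These 3 genes rose in DKO ES cells, but Dusp6 and Spry2 fell in KO ES cells. No window was read for Dusp4, which rose most in DKO, nor for Spry4, Etv4 or Egr1. Each window runs from 250 bases before to 50 bases after the annotated start, 5′ to 3′ on the gene's strand, from RefSeq on GRCm38.p6. Capitals mark the motif matches.
Dusp6, chr10:99262981-99263280, plus strand: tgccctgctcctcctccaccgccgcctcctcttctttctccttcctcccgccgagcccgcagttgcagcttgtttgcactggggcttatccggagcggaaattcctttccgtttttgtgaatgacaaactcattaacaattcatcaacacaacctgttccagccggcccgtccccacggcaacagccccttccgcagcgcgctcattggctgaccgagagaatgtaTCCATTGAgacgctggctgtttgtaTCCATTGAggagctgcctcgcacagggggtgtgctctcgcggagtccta
Spry2, chr14:105896770-105897069, minus strand: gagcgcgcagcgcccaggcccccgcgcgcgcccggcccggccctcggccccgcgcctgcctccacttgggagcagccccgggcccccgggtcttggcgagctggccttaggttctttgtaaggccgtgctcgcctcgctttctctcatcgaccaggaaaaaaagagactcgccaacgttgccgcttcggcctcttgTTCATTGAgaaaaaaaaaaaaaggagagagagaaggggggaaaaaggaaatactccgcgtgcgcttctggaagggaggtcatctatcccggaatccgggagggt
Dusp5, chr19:53528895-53529194, plus strand: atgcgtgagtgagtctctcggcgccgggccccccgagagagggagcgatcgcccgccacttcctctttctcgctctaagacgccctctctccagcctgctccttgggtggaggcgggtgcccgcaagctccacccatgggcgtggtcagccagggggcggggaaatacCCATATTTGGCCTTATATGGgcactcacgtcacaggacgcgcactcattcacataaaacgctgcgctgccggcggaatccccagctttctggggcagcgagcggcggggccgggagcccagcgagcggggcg
In Dusp6 and Spry2 the capitals are Capicua octamers read on the opposite strand (searched as TGAATGAA, TGAATGGA, TCAATGAA and TCAATGGA, both strands). Capicua is an HMG-box repressor that ERK activity inactivates. The Dusp6 window holds 2 such octamers, which begin 24 bases before and 1 base after the start, and the Spry2 window holds 1, which begins 54 bases before it; 3.84% of all 32851 windows of this length hold at least 1. In Dusp5 the capitals are 2 adjoining CArG boxes, which begin 82 and 72 bases before the start, the element bound by serum response factor at immediate early genes, which 1.63% of all windows hold.

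The ETS motif (CCGGAAGT or ACCGGAAG, 4.95% of all windows), the AP-1 motif (TGACTCA or TGAGTCA, 5.2%) and the TCF motif (CTTTGATC or CTTTGAAC, 1.91%) had no match in the 7 windows read, which belong to Spry1, Spry2, Spred1, Dusp5, Dusp6 and, with 2 windows, Etv5. No motif match overlaps another. The windows of Spry1, Spred1 and Etv5 held none of the motifs, which says only that these letters are not in these windows. All 7 windows were richer in G and C (57.3 to 74.0%) than the median of all windows (52.7%) and held 19 to 40 CG dinucleotides against a median of 7. A match is a description of the letters and not evidence that a factor binds there.

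The Sprouty genes encode adaptors that block the pathway below the receptor. Spry2 had 494.9 and 507.8 CPM in the WT ES libraries, 161.2 and 194.2 CPM in the KO pair and 1008.7 and 887.0 CPM in the DKO pair. The 3 groups did not overlap, with KO lowest and DKO highest. On the log2 scale Spry2 fell by 1.47 in KO (SE 0.12, adjusted p = 2.8e-06) and rose by 0.93 in DKO (SE 0.12, adjusted p = 3.2e-05), a direct difference of 2.40 (SE 0.13, adjusted p = 1.6e-08) between the mutants. Spry2 lies on chromosome 14, where the median of 433 genes was -0.53 in KO against WT ES cells and 0.08 in DKO against WT. The part of that chromosome-wide shift in the Spry2 value was not tested.

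Spry4 had 735.7 and 742.8 CPM in the WT ES libraries, 165.7 and 150.6 CPM in the KO pair and 457.0 and 423.7 CPM in the DKO pair. Both mutants were below WT, with KO the lower of them and no overlap. Spry4 fell by 2.20 in KO (SE 0.11, adjusted p = 5.9e-08) and fell by 0.74 in DKO (SE 0.11, adjusted p = 8.6e-05). It was the member with the largest fall in KO, at the 0.5th percentile of all fold changes.

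Spry1 followed another order. It had 49.4 and 50.2 CPM in the WT ES libraries, 41.8 and 44.0 CPM in the KO pair and 14.1 and 11.9 CPM in the DKO pair. The DKO libraries were far below the rest, and the KO libraries lay just below WT without overlap. Spry1 fell by 1.93 in DKO (SE 0.14, adjusted p = 3e-07), while the KO difference of -0.18 (SE 0.13) had an adjusted p of 0.29. Spry1 was thus the only Sprouty gene of the 3 whose KO difference did not pass the test.

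Spred1 encodes a membrane protein that brings neurofibromin, a RAS inactivator, to RAS. Spred1 had 84.3 and 91.8 CPM in the WT ES libraries, 40.2 and 29.2 CPM in the KO pair and 81.4 and 108.3 CPM in the DKO pair. KO was lowest, and the DKO libraries lay on either side of WT. It fell by 1.31 in KO (SE 0.17, adjusted p = 7.7e-05), and the DKO difference from WT was 0.12 (SE 0.17, adjusted p = 0.56). DKO was above KO by 1.43 (SE 0.17, adjusted p = 1.4e-05).

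The phosphatase genes gave the largest rises in DKO. Dusp4 encodes a nuclear phosphatase of ERK and other MAP kinases and had 47.1 and 49.6 CPM in the WT ES libraries, 28.6 and 30.2 CPM in the KO pair and 461.1 and 433.8 CPM in the DKO pair. Every DKO library was above every WT library, and every KO library below. Dusp4 rose by 3.22 in DKO (SE 0.12, adjusted p = 2.4e-09), at the 98.9th percentile of all fold changes, and fell by 0.69 in KO (SE 0.11, adjusted p = 0.00039). Its difference between the mutants, 3.91 (SE 0.12, adjusted p = 3.4e-10), was the largest of the 10 genes.

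Dusp6 encodes the cytoplasmic phosphatase that is specific for ERK. Dusp6 had 145.4 and 148.5 CPM in the WT ES libraries, 38.3 and 43.9 CPM in the KO pair and 366.0 and 353.6 CPM in the DKO pair. As with Spry2 and Dusp4, KO lay below WT and DKO above it, with no overlap. Dusp6 fell by 1.81 in KO (SE 0.12, adjusted p = 3.4e-07), rose by 1.30 in DKO (SE 0.11, adjusted p = 1.1e-06), and differed between the mutants by 3.11 (SE 0.12, adjusted p = 1.7e-09).

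Dusp5 encodes a nuclear phosphatase specific for ERK and was the least abundant member in WT ES cells. It had 12.0 and 12.9 CPM in the WT ES libraries, 15.6 and 17.2 CPM in the KO pair and 32.4 and 25.6 CPM in the DKO pair. The DKO libraries were highest and the KO libraries slightly above WT. Dusp5 rose by 1.23 in DKO (SE 0.17, adjusted p = 4.6e-05), and the KO difference of 0.43 (SE 0.17, adjusted p = 0.060) did not pass the test. It passed when a DKO ES library was left out of the fit (adjusted p = 0.021 without either).

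Etv4 and Etv5 encode ETS transcription factors of the PEA3 group and are direct readouts of FGF signalling in many embryonic tissues. Etv4 had 222.8 and 225.8 CPM in the WT ES libraries, 69.5 and 65.6 CPM in the KO pair and 109.5 and 96.4 CPM in the DKO pair. Both mutants were below WT, KO more so. Etv4 fell by 1.70 in KO (SE 0.12, adjusted p = 5.4e-07) and fell by 1.11 in DKO (SE 0.12, adjusted p = 4.7e-06). Etv4 lies on chromosome 11, where the median of 1040 genes was -0.40 in DKO against WT ES cells, and the part of that shift in its DKO value was not tested. The corresponding median in KO was 0.12.

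Etv5 had 633.5 and 627.8 CPM in the WT ES libraries, 665.2 and 665.4 CPM in the KO pair and 259.3 and 283.8 CPM in the DKO pair. Here KO lay slightly above WT and DKO far below. Etv5 fell by 1.21 in DKO (SE 0.11, adjusted p = 1.3e-06), and the KO difference was 0.11 (SE 0.11, adjusted p = 0.45). Between the PEA3 genes, then, the KO call was Etv4 alone.

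Egr1, a zinc-finger immediate early gene induced through serum response factor and ETS cofactors, had 124.7 and 153.6 CPM in the WT ES libraries. The KO libraries had 69.5 and 65.9 CPM and the DKO libraries 65.7 and 42.6 CPM. Both mutants were below WT, and no library of either overlapped it. Egr1 fell by 1.01 in KO (SE 0.18, adjusted p = 0.00070) and fell by 1.35 in DKO (SE 0.18, adjusted p = 3.9e-05). The difference between the mutants was -0.34 (SE 0.18, adjusted p = 0.11). It rested on the DKO libraries: it was -0.67 without the first (adjusted p = 0.00034) and -0.03 without the second (adjusted p = 0.86).

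**Figure D2:**
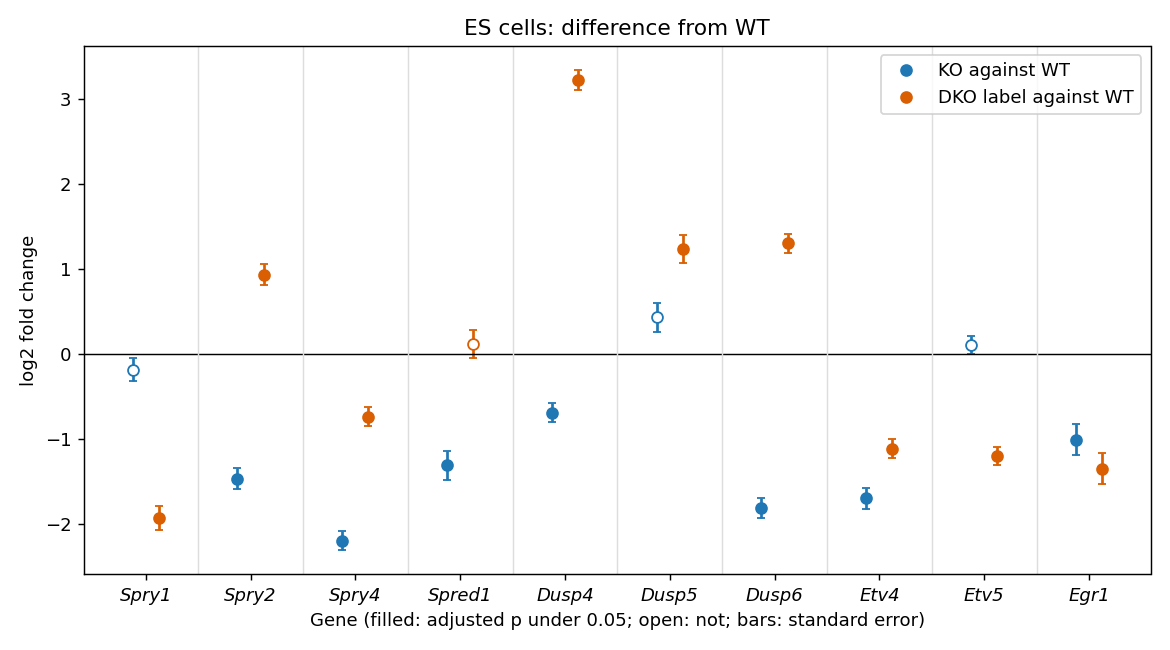
Log2 fold change of each gene in KO and DKO against WT ES cells, with standard errors; filled points have an adjusted p under 0.05. Dusp4, Dusp6 and Spry2 lie below 0 in KO and above 0 in DKO, while Spry4, Etv4 and Egr1 lie below 0 in both.

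The remaining direct differences between the mutants followed from these levels. Spry4 was higher in DKO than in KO by 1.46 (SE 0.11, adjusted p = 2.8e-07), Dusp5 by 0.80 (SE 0.17, adjusted p = 0.00097) and Etv4 by 0.59 (SE 0.12, adjusted p = 0.00069). Spry1 was lower in DKO than in KO, at -1.74 (SE 0.14, adjusted p = 4.7e-07), as was Etv5, at -1.31 (SE 0.11, adjusted p = 4.8e-07). In KO 2 members lay above and 8 below WT without overlap of libraries; 76.9% of all genes tested did not overlap in that comparison. In DKO 4 lay above and 5 below, with 82.4% of all genes not overlapping.

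Levels can be compared between genes on the deposited RPKM scale, which divides by transcript length. In WT ES cells Spry2 was the most abundant member (123.0 and 125.2 RPKM), then Etv5 (86.0 and 84.5 RPKM), Spry4 (83.2 and 83.3 RPKM), Etv4 (49.5 and 49.7 RPKM), Dusp6 (27.0 and 27.3 RPKM) and Egr1 (21.1 and 25.7 RPKM). Spred1 followed at a mean of 15.2 RPKM, Spry1 and Dusp4 were at means of 10.3 RPKM with overlapping libraries, and Dusp5 was lowest (5.4 and 5.7 RPKM). In KO Etv5 led (89.9 and 88.5 RPKM) before Spry2 (39.9 and 47.3 RPKM). In DKO Spry2 led (257.6 and 212.9 RPKM), followed by Dusp4 (101.3 and 89.6 RPKM) and Dusp6 (69.8 and 63.3 RPKM). Dusp4 thus stood ninth of 10 in WT and second in DKO. Summed over the 10 genes the level was 430 and 438 RPKM in WT ES cells, 211 and 214 RPKM in KO and 587 and 508 RPKM in DKO.

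Other genes of the pathway were taken from 4 lists. Of 18 FGF ligands, receptors and co-receptors, 9 passed the filter in ES cells. The counts of this and the next lists stand against 23.5% of all genes higher and 19.2% lower in KO, and 32.2% higher and 31.6% lower in DKO. In KO 6 of the 9 were higher and 3 lower (median log2 0.88), and in DKO 3 were higher and 4 lower (median -0.12). Fgf17, a secreted ligand on chromosome 14, had 143 and 155 CPM in the WT libraries, 47.9 and 53.7 CPM in the KO pair and 6.86 and 5.35 CPM in the DKO pair. The log2 change was -1.52 in KO (SE 0.13, adjusted p = 3.7e-06) and -4.60 in DKO (SE 0.16, adjusted p = 2e-09). The ligand gene Fgf15 fell in both (-2.21 and -2.42) and Fgf18 in DKO (-3.47). Fgf13, an X-linked member of the family that stays inside the cell, rose by 3.03 in KO (SE 0.17, adjusted p = 9.3e-08).

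All 25 RAS-ERK transducers were tested. In KO 7 were higher and 8 lower (median 0.05), and in DKO 13 were higher and 6 lower (median 0.33). Mras, a RAS-related GTPase, had 128 and 142 CPM in the WT libraries, 51.8 and 56.0 CPM in the KO pair and 294 and 277 CPM in the DKO pair. It therefore had the order of Spry2, Dusp4 and Dusp6: a change of -1.30 in KO (SE 0.12, adjusted p = 4.2e-06) and of 1.09 in DKO (SE 0.11, adjusted p = 5e-06). The X-linked kinase gene Araf rose by 0.93 in KO. In DKO the adaptor Gab1 (-0.81) and the scaffold Ksr1 (-1.39) fell.

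Of 17 other feedback regulators 14 were tested; 2 were higher and 5 lower in KO (median -0.13), and 7 were higher and 4 lower in DKO (median 0.34). Dusp9, an X-linked ERK phosphatase, had 359 and 342 CPM in the WT libraries, 1019 and 1116 CPM in the KO pair and 810 and 842 CPM in the DKO pair. It rose by 1.64 in KO (SE 0.11, adjusted p = 4.1e-07) and in DKO by 1.25 (SE 0.11, adjusted p = 1.1e-06). The median of 433 X-linked genes was 0.91 in KO against WT and -0.09 in DKO against WT. The part of the former in the KO values of Dusp9, Araf and Fgf13 was not tested. Chromosomes 1 and 14 were shifted in KO against WT (medians -0.57 and -0.53), and chromosome 11 in DKO against WT (-0.40). For DKO against KO the medians were 0.72 (chromosome 1), 0.60 (14), -0.56 (11) and -0.93 (X). The part of these shifts in the values of genes on the 4 lists was not tested. Il17rd, which encodes the FGF antagonist Sef, fell by 0.87 in KO, and Pea15a, an ERK-binding protein of the cytoplasm, fell by 2.06. Dusp1 (1.14) and the RAS GTPase activator Rasal2 (0.99) rose in DKO.

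Of 31 other ERK and immediate early targets 24 were tested, with 10 higher and 8 lower in KO (median 0.26) and 12 higher and 5 lower in DKO (median 0.46). These did not all move with the members: Jun, of the AP-1 family, rose by 1.55 in KO (SE 0.12, adjusted p = 1.8e-06) and in DKO by 2.79 (SE 0.13, adjusted p = 7.9e-09). The cytokine gene Lif rose by 2.10 in KO. Myc, at 218 and 224 CPM in WT, fell in KO to 61.7 and 74.6 CPM (-1.67, adjusted p = 1.6e-06) and in DKO to 25.5 and 21.5 CPM (-3.23, adjusted p = 7.2e-09). The stress-induced factor gene Atf3 rose by 4.29 in DKO (SE 0.14, adjusted p = 1.6e-09). Between the mutants, Fgf13 (-1.91), Fgf17 (-3.08), the receptor gene Fgfr2 (-3.19) and Ksr1 (-1.77) were lower in DKO. The adaptor Shc1 (0.92), Mras (2.39), Spred3 (1.86), Rasal2 (1.64), Pea15a (2.84), Atf3 (3.77), Phlda1 (2.49) and Klf10 (1.59) were higher. Against 33.2% of all genes higher and 34% lower, the counts between the mutants over the 4 lists were 1 higher and 6 lower, 10 and 6, 7 and 3, and 14 and 7, in the order given above.

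Differentiation was examined as the mean of days 8 and 12 against ES cells. Averaged over the genotypes, Spry1 was higher and Spry2, Spry4 and Etv4 were lower in differentiated cells; 35.8% of the 13433 genes tested were called (20.1% higher and 15.7% lower). The values were 1.17 for Spry1 (SE 0.23, adjusted p = 0.0050), -1.33 for Spry2 (SE 0.27, adjusted p = 0.0056), -1.83 for Spry4 (SE 0.60, adjusted p = 0.037) and -1.81 for Etv4 (SE 0.62, adjusted p = 0.043). Spry1 and Spry2 held without any 1 library. Spry4 lost its call without either WT ES library (adjusted p = 0.057 each), the first KO ES library (0.052), WT day 8 (0.086), WT day 12 (0.079), KO day 12 (0.073) or DKO day 12 (0.064). Etv4 lost it without any of those (0.060 to 0.10) or the second KO ES library (0.057). Etv5, at -1.21 (adjusted p = 0.080), passed with DESeq2 (0.016) and without the first DKO ES library (0.046) or DKO day 8 (0.028). Dusp4, at 1.01 (adjusted p = 0.21), passed without DKO day 8 (1.49, adjusted p = 0.038). For no member did all 6 differentiated libraries lie on 1 side of all 6 ES libraries, as they did for 8.67% of the genes tested. The genotypes are therefore given separately.

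In WT, 5 members fell and 3 rose with differentiation, against 61.1% of all genes called (31.2% higher and 29.8% lower). The largest falls were in the pair Spry4 and Etv4 and in Etv5. Spry4 went from 735.7 and 742.8 CPM to 39.6 CPM at day 8 and 35.8 CPM at day 12, a log2 change of -4.21 (SE 0.27, adjusted p = 2.1e-05). Etv4 went from 222.8 and 225.8 CPM to 11.4 and 9.5 CPM (-4.37, SE 0.31, adjusted p = 2.9e-05). Etv5 went from 633.5 and 627.8 CPM to 91.7 and 54.9 CPM (-3.10, SE 0.12, adjusted p = 5e-06). Both differentiated libraries were below both ES libraries for all 3 genes. Spry2 fell likewise, to 96.0 and 99.0 CPM (-2.31, SE 0.16, adjusted p = 2.7e-05).

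Dusp4 rose in WT, from 47.1 and 49.6 CPM to 139.6 and 109.1 CPM (1.44, SE 0.25, adjusted p = 0.0013). These 5 changes held without any 1 library. Spry1 rose to 73.1 and 71.8 CPM (0.59, adjusted p = 0.030), and Dusp6 fell to 103.4 and 55.8 CPM (-0.87, adjusted p = 0.019). Dusp5 rose to 14.6 and 40.4 CPM (1.11, adjusted p = 0.030). Day 12 alone was high for Dusp5: without that library the change was 0.25 (adjusted p = 0.42), and without day 8 it was 1.82. Dusp6 fell short without WT day 12 (-0.42, adjusted p = 0.14) or the second WT ES library (adjusted p = 0.0501). Spry1 fell short without either WT ES library (adjusted p = 0.14 and 0.13), either KO ES library (0.057 and 0.051) or WT day 8 (0.086), and with no filter on low values (0.051). Dusp5 fell short also without either WT ES library (0.15 and 0.12), either KO ES library (0.062 and 0.0504) or the second DKO ES library (0.058). Egr1 (-0.31, adjusted p = 0.27) did not pass. Spred1 (-0.56, adjusted p = 0.066) passed with the transcript model of most reads (0.043) and without the first KO ES library (0.040), the second DKO ES library (0.042), WT day 8 (-0.83, 0.024), KO day 8 (0.030) or KO day 12 (0.034). Without WT day 12 it was -0.27 (adjusted p = 0.39).

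In KO, 4 members rose and 3 fell, against 29.3% of all genes called (15.8% higher and 13.5% lower). Dusp4 went from 28.6 and 30.2 CPM to 152.7 and 234.5 CPM (2.71, SE 0.26, adjusted p = 0.00071), and Dusp6 from 38.3 and 43.9 CPM to 103.3 and 139.0 CPM (1.60, SE 0.27, adjusted p = 0.0048). Both genes were higher in each differentiated library than in either ES library. Etv5 fell from 665.2 and 665.4 CPM to 417.2 and 236.4 CPM (-1.07, SE 0.11, adjusted p = 0.0012). These 3 held without any 1 library.

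The other 4 KO calls were Spry1 (0.90, adjusted p = 0.014), Spred1 (0.94, adjusted p = 0.021), Spry4 (-0.86, adjusted p = 0.029) and Etv4 (-0.88, adjusted p = 0.041). Each of them was lost without KO day 12 (adjusted p = 0.11, 0.14, 0.20 and 0.073) and without the second KO ES library (0.084, 0.14, 0.10 and 0.13). Without the first KO ES library Spry1 (0.093), Spry4 (0.14) and Etv4 (0.14) were lost as well. Spry4 was also lost without either WT ES library (0.059 each) or the second DKO ES library (0.054). Etv4 was lost without either WT ES library (0.066 each), either DKO ES library (0.065 and 0.058) or KO day 8 (0.18), and with limma (0.065). Spry4 was at 122.9 and 59.9 CPM and Etv4 at 41.1 and 31.6 CPM in differentiated KO cells, so both stood above their WT counterparts after starting below them. Spry2 stood at 132.8 and 130.5 CPM (-0.41, adjusted p = 0.071), a value that passed with DESeq2 (0.023) and without WT day 8 (0.032), WT day 12 (0.045) or DKO day 12 (0.049).

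In DKO, 1 member rose and 3 fell, against 19.6% of all genes called (10.4% higher and 9.22% lower). Spry1 rose from 14.1 and 11.9 CPM to 57.8 and 47.8 CPM (2.03, SE 0.21, adjusted p = 0.0013), and Spry2 fell from 1008.7 and 887.0 CPM to 435.7 and 346.2 CPM (-1.28, SE 0.15, adjusted p = 0.0024). Both held without any 1 library. Dusp4 fell, opposite to WT and KO, from 461.1 and 433.8 CPM to 130.4 and 224.6 CPM (-1.36, SE 0.24, adjusted p = 0.0092), and lost its call without DKO day 8 (-1.06, adjusted p = 0.060). Spry4 went to 353.4 and 143.5 CPM (-0.94, adjusted p = 0.029) and lost its call without DKO day 12 (-0.60, adjusted p = 0.22), any WT or KO ES library (adjusted p = 0.055 to 0.071) or either DKO ES library (0.11 and 0.13). Etv5 was at 424.5 and 261.5 CPM (0.30, adjusted p = 0.095; 0.030 with DESeq2). Etv4 was at 99.4 and 34.6 CPM (-0.75, adjusted p = 0.084). The Etv4 value was -1.40 without DKO day 8 (adjusted p = 0.0042) and -0.20 without DKO day 12 (0.46), and it passed without WT day 8 (0.025) or WT day 12 (0.030) and with DESeq2 (0.035). Dusp6 went to 257.6 and 205.6 CPM (-0.64, adjusted p = 0.11) and passed without either WT day (0.020 and 0.023) or either KO day (0.019 each).

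**Figure D3:**
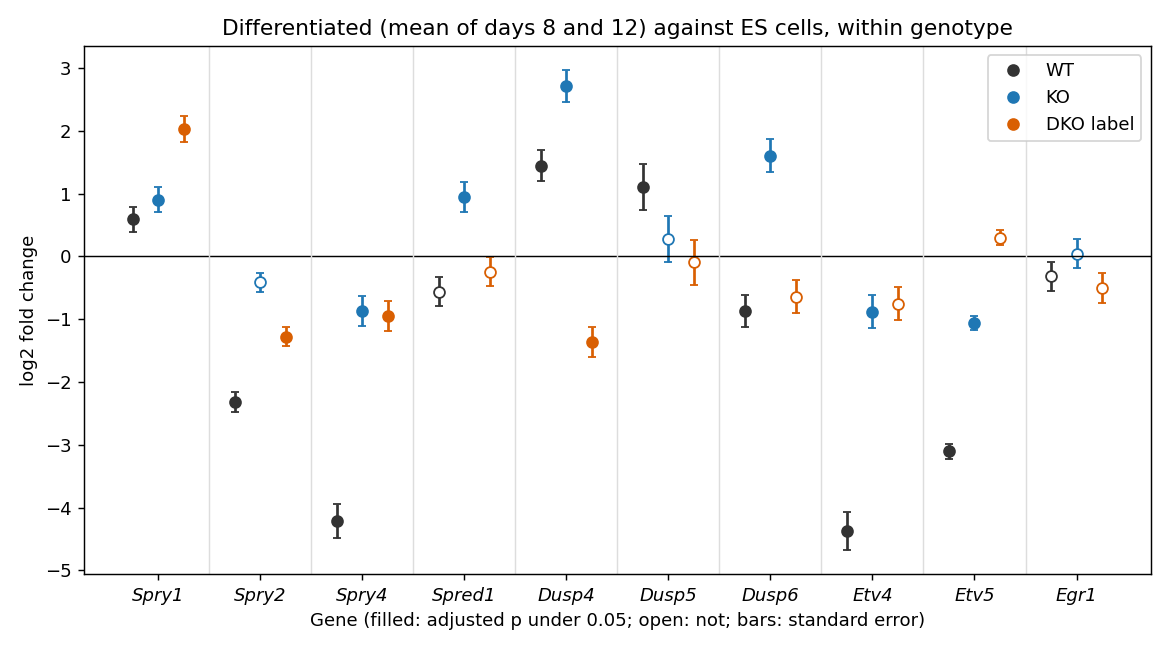
Log2 change from ES to differentiated cells (mean of days 8 and 12) within each genotype, with standard errors; filled points have an adjusted p under 0.05. WT points for Spry4 and Etv4 lie below -4, while the KO and DKO points for these genes lie between 0 and -1.

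Whether the mutants changed differently from WT was tested directly as an interaction of genotype and state. It takes the ES difference from the differentiated difference, so it is not independent of the ES calls above. In KO against WT, Spred1 stood at -1.31 in ES cells and 0.19 in differentiated cells. Etv5 stood at 0.11 and 2.15. For KO, 7 members had a higher (more positive) change than WT and none a lower, against 16.3% of all genes called (9.09% higher and 7.24% lower), with a median of 1.70 over the members and 0.03 over all genes. The values were 3.49 for Etv4 (SE 0.39, adjusted p = 0.0025), 3.35 for Spry4 (SE 0.35, adjusted p = 0.0021), 2.47 for Dusp6 (SE 0.37, adjusted p = 0.0067), 2.04 for Etv5 (SE 0.16, adjusted p = 0.00079) and 1.90 for Spry2 (SE 0.22, adjusted p = 0.0027). These held without any 1 library. Spred1 (1.50, adjusted p = 0.022) lost its call without either WT ES library (0.070 and 0.084) or the second KO ES library (0.088). Dusp4 (1.27, adjusted p = 0.041) lost its call without any of the 6 ES libraries (0.057 to 0.12) or KO day 12 (0.072), and with limma (0.063). Dusp5 had a lower value (-0.83, adjusted p = 0.30) that passed without WT day 8 (-1.58, adjusted p = 0.0084).

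For DKO, 5 members had a higher change than WT and 1 a lower, against 42% of all genes called (21.1% higher and 20.9% lower). The higher ones were Etv4 at 3.62 (SE 0.39, adjusted p = 0.00040), Etv5 at 3.40 (SE 0.16, adjusted p = 3.7e-05), Spry4 at 3.27 (SE 0.35, adjusted p = 0.00036), Spry1 at 1.44 (SE 0.28, adjusted p = 0.0049) and Spry2 at 1.04 (SE 0.21, adjusted p = 0.0061). Dusp4 was lower at -2.81 (SE 0.35, adjusted p = 0.00069). All 6 calls held without any 1 library; Etv4 moved most, from 2.98 without DKO day 8 to 4.21 without DKO day 12. Dusp5 (-1.20, adjusted p = 0.098) passed without WT day 8 (-1.96, adjusted p = 0.0012) or DKO day 8 (-1.72, adjusted p = 0.039). The KO and DKO interactions share the WT libraries, so their likeness is not a separate result.

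Marker levels also differed between the genotypes after differentiation. The summed ES marker level was 808 and 928 CPM in differentiated WT, and 2231 to 8902 CPM in the differentiated mutants. Feeder and mesenchyme markers (11 genes) summed to 4279 and 2831 CPM (WT, day 8 and day 12), 104 and 1265 CPM (KO) and 24.2 and 11.8 CPM (DKO). Primitive and visceral endoderm markers (11 genes) summed to 2128 and 5044 CPM (WT), 220 and 1331 CPM (KO) and 243 and 2758 CPM (DKO). At day 12 Gata6, Gata4, Sox17, Sox7, Pdgfra and Foxa2 were highest in WT. Apoa1 and Ttr were then higher in both mutants than in WT, Afp in KO, and Dab2 and Hnf4a in DKO. Mesoderm and cardiac markers (11 genes) summed to 911 and 471 CPM (WT), 460 and 755 CPM (KO) and 72.7 and 455 CPM (DKO). Of these sums Hand1 gave 824 and 364 CPM (WT), 284 and 450 CPM (KO) and 1.83 and 8.00 CPM (DKO). Tbx5 and Nkx2-5 were highest in WT on both days. Myh6, Myl7, Tnnt2 and Actc1 were highest in WT at day 8 but in KO at day 12. Actc1 then had 5.56 CPM in WT and 38.9 CPM in KO. Eomes was instead lowest in WT, at 4.61 and 37.7 CPM, against 87.0 and 104.7 CPM (KO) and 49.6 and 262.5 CPM (DKO). T, Mixl1 and Mesp1 were higher than in WT in KO on both days and in DKO at day 12. Blood and endothelium markers (8 genes) summed to 2532 and 214 CPM (WT), 354 and 548 CPM (KO) and 112 and 105 CPM (DKO). Neural markers summed to 127 and 111 CPM (WT), 259 and 278 CPM (KO) and 276 and 288 CPM (DKO). The part of this difference in cell makeup in the values of the 10 genes was not tested. Spry4, Etv4 and Etv5 were higher at day 8 than at day 12 in all 3 genotypes. The ES marker sum was higher at day 8 in both mutants and lower at day 8 in WT. The WT sum followed Klf4, at 55.1 CPM on day 8 and 622 CPM on day 12. Every other ES marker on the list was higher at day 8 in WT too.

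**Figure D4:**
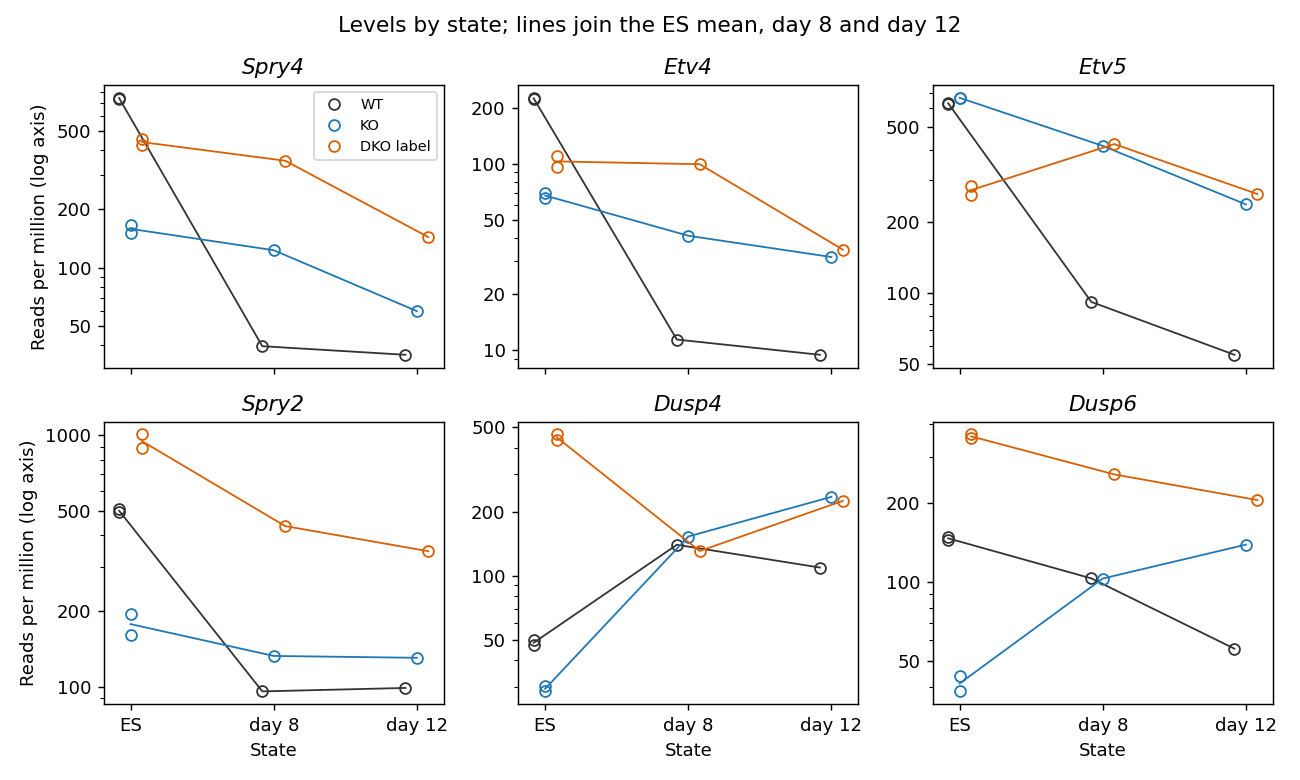
Level in CPM on a log axis of Spry4, Etv4, Etv5, Spry2, Dusp4 and Dusp6 in ES cells, at day 8 and at day 12; circles are libraries and lines join the ES mean to the single library of each day. For Spry4 and Etv4 the WT line starts highest and ends lowest, and for Dusp4 the DKO line falls from ES cells to day 8 while the WT and KO lines rise.

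Among differentiated cells alone, genotypes were compared over 6 libraries with day as a term, which left 2 residual degrees of freedom. Between DKO and WT edgeR called 2 members: Etv5 (2.23, SE 0.19, adjusted p = 0.043) and Spry2 (1.996, SE 0.21, adjusted p = 0.043) were higher in DKO, against 2.19% of the 12900 genes called (1.52% higher and 0.674% lower). DESeq2 called 6 members and 3140 genes, and limma 5 members and 714 genes, against 2 and 283 with edgeR. Etv5 and Spry2 both lost their call without either DKO library (adjusted p = 0.30 and 0.25) or either KO library, and Spry2 also without WT day 8 (0.060). Values near the threshold were Spry4 at 2.56 (SE 0.36, adjusted p = 0.052), Etv4 at 2.54 (SE 0.41, adjusted p = 0.056), Egr1 at -1.51 (SE 0.24, adjusted p = 0.056) and Dusp6 at 1.57 (SE 0.36, adjusted p = 0.077). DESeq2 called these 4 and limma the first 3 of them. Spry4 also passed with no filter (0.046), and without WT day 12 Spry4 (0.014) and Etv4 (0.036) passed, while without either DKO library the adjusted p of all 4 was 0.25 to 0.36. Egr1 had 96.1 and 122.0 CPM (WT, day 8 and day 12), 71.3 and 65.5 CPM (KO) and 31.8 and 45.2 CPM (DKO), so DKO was lowest in differentiated cells on both days.

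Between KO and WT no member was called by edgeR, nor was any gene (0%). With edgeR 4 members had an unadjusted p under 0.05, as had 3003 of the 12900 genes tested. DESeq2 called 3 members and limma 1. The largest values were those of Etv5 (2.15, SE 0.19, adjusted p = 0.075), Etv4 (1.79, SE 0.40, adjusted p = 0.12) and Spry4 (1.15, SE 0.34, adjusted p = 0.16). Between DKO and KO edgeR called no member (0.00775% of genes, 1 in all). There 3 members had an unadjusted p under 0.05 with edgeR, as had 2163 of 12900 genes. DESeq2 called 2 members and limma none. Spry2 was the highest between DKO and KO at 1.56 (SE 0.20, adjusted p = 0.20), and passed without either WT library (0.049 each). Spry2 had 96.0 and 99.0 CPM in the WT libraries, 132.8 and 130.5 CPM in the KO pair and 435.7 and 346.2 CPM in the DKO pair, with no overlap. Between day 12 and day 8 edgeR called no member and no gene (0%). For the days 2 members had an unadjusted p under 0.05 with edgeR, as had 1582 of 12900 genes. DESeq2 called 1 member and limma none. The day differences ran from -0.83 (Spry4) to 0.43 (Dusp5). Etv5 was lower at day 12 in all 3 genotypes (-0.75, SE 0.15, adjusted p = 0.37), as were Spry4 and Etv4 (-0.72, SE 0.32, adjusted p = 0.45).

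Averaged over the genotypes, each of the other pathway lists held more genes that rose than fell with differentiation, among genes that passed the filter in any 2 libraries, against 20.1% of all genes higher and 15.7% lower. Of 14 FGF ligands, receptors and co-receptors tested 8 rose and none fell, of 25 transducers 9 rose and 4 fell, of 16 feedback regulators 4 rose and 1 fell, and of 27 other targets 12 rose and 3 fell. The feedback regulators were thus near the share of all genes. In the ES libraries alone 9, 25, 14 and 24 genes of the 4 lists passed the filter. A gene that passes only through differentiated libraries can hardly be called lower, so part of the surplus of rises may follow from the filter. Within DKO the rises and falls were 7 and 1, 2 and 3, 1 and 1, and 6 and 3 in the order of the lists (10.4% and 9.22% of all genes). Within WT they were 7 and 3, 10 and 4, 7 and 5, and 16 and 6 (31.2% and 29.8%). Within KO they were 8 and 4, 5 and 2, 5 and 1, and 11 and 4 (15.8% and 13.5%). Fgfr1, an FGF receptor gene, went from 129 to 203 CPM over the ES libraries to 261 to 393 CPM over the differentiated ones (0.92, SE 0.16, adjusted p = 0.0034). Fgfr2 (2.78) and the ligand gene Fgf10 (3.27) rose too, as did Mapk3 (1.14), which encodes ERK1. Fgf10 was low in the ES libraries, at 1.59 to 5.68 CPM. Among feedback regulators Dusp7 (0.98) and Pea15a (1.53) rose and the ETS repressor gene Erf (-0.83) fell. Mras (-3.20) and Gab1 (-0.78) fell among the transducers. Ier3 (2.72) and Ier5 (2.51), immediate early genes, rose, while Klf10 (-1.09) fell.

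Likeness of profiles was measured as the root mean square difference of centred log2 CPM over the 12 libraries, which share genotype and state, among 7512 genes. Spry4 and Etv4 were the closest pair of members, at 0.36, nearer to each other than to any gene outside the set. The nearest outside genes were Tdh (0.53) and Triml1 (0.54) for Spry4 and Tet1 (0.45) and Triml1 (0.45) for Etv4. Tdh encodes threonine dehydrogenase, an enzyme abundant in mouse ES cells, and Tet1 a methylcytosine dioxygenase. For Etv5 they were Dkc1 (0.14) and Polr1b (0.28), so that Etv5 was farther from Etv4 (0.77) than from these. Spry2 lay nearest Elovl4 (0.34) and Glud1 (0.39).

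The phosphatase genes had separate neighbours: Neil2 (0.42) and Nfkb1 (0.44) for Dusp6, Ptger1 (0.50) and Hexa (0.57) for Dusp4, and Whamm (0.20) and Psap (0.22) for Dusp5. Spred1 lay nearest Zfp266 (0.12) and Leprotl1 (0.24), Spry1 nearest Nr1d1 (0.25) and Ldha (0.27). Egr1 lay nearest Srp54b (0.27) and Dynlt1a (0.29), which belong to families of near-identical copies among which reads may have been split. Among members, Spred1 and Dusp6 (0.65), Spred1 and Dusp5 (0.69), Spry2 and Spry4 (0.70) and Spry2 and Dusp6 (0.75) followed the Spry4 and Etv4 pair at a distance.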

How the data were processed

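Polyadenylated RNA of 12 libraries was analysed. The alignment used Bowtie2 and mm9, per the submitters' processing notes. For the counting program and its use of strand the sources used here give no name. The authors' deposited tables hold whole-number read counts per RefSeq transcript model, model lengths, and RPKM that the authors made from counts, length and a library total. The longest model stood for each gene, and the 10 members have 1 model each. The members, the gene lists and the tests were chosen with earlier results of these data known.

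Counts were tested with edgeR 4.0.16 (quasi-likelihood, TMM scaling); a gene was tested when 2 or more libraries of the fit reached 1 RPKM. ES comparisons used the 6 ES libraries (3 residual degrees of freedom), comparisons of differentiated cells 6 libraries with genotype and day, the overall state comparison 12 libraries with genotype, and within-genotype and interaction tests a mean per genotype and state plus day. An adjusted p under 0.05 (Benjamini-Hochberg over all genes tested) was called; the SE was taken as log2 fold change over the root of the F statistic. RPKM served for comparing levels between genes. The ES replicates differed beyond counting noise (chi-square per degree of freedom 3.93 in WT, 14.9 in KO and 36.1 in DKO). Depth limits the precision of low genes; no interval for counting error is given, since replicates were modelled.

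Genes named were every member, up to 3 genes of smallest adjusted p per list in the ES comparisons and the overall state comparison, and the 2 nearest genes (mean RPKM at least 5) of each member. A gene that this rule names among the transducers is not reported here. Alternatives were DESeq2 1.42.0, limma 3.58.1 on log2(RPKM + 1), other scaling, no filter, the model with the most reads, leaving out single libraries, and a replicate block. The scripts were tested on simulated data. R 4.3.3 and Python 3.11.15 (pandas 2.3.3, numpy 2.4.6, matplotlib 3.10.9) were used.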

Additional observations from a re-analysis of the deposited data

Results flagged for a closer look

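For 13 results the change from ES to differentiated cells differed between a mutant and WT by the interaction test (edgeR, adjusted p under 0.05). In KO these were Spry2 (1.90), Spry4 (3.35), Spred1 (1.50), Dusp4 (1.27), Dusp6 (2.47), Etv4 (3.49) and Etv5 (2.04), as differences of log2 changes, mutant minus WT. In DKO they were Spry1 (1.44), Spry2 (1.04), Spry4 (3.27), Dusp4 (-2.81), Etv4 (3.62) and Etv5 (3.40). Of all 13433 genes tested, 16.3% were called for KO and 42% for DKO. Each value takes the ES difference from the differentiated difference, so these results are not independent of the ES calls. The KO calls of Spred1 and Dusp4 were lost without certain single libraries, and the other calls held without any 1 library. Dusp4 is the gene whose difference had opposite signs in the 2 mutants. Its ES level was 461.1 and 433.8 CPM in DKO and 28.6 and 30.2 CPM in KO, while its differentiated levels were 130.4 to 234.5 CPM in both.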

How the results depend on the processing

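With 2 ES libraries per genotype and 1 library per genotype and day, no comparison had more than 8 residual degrees of freedom. Of 810 member values recomputed with every library kept, 783 kept their direction and their side of the threshold, 3 lost a call (Spry1 within WT with no filter, and with limma Etv4 within KO and the KO interaction of Dusp4), 20 gained one and 4 reversed. With a library left out the numbers were 993, 74, 28 and 45 of 1140. DESeq2 called, over all genes, 1834 for KO against WT differentiated cells, 3140 for DKO against WT, 1176 for DKO against KO, 563 between days and 3307 for the KO interaction, and among the members 3, 6, 2 and 1 for the first 4 of these. limma called 136, 714 and 5 genes in the 3 genotype comparisons of differentiated cells, and 1 and 5 members in the first 2; without the filter 7 genes were called for KO against WT. Direction reversed in uncalled values alone: Spry2 between days with limma (0.0010), Dusp6 between states with limma (0.11), and Dusp5 for DKO against WT differentiated cells with the model of most reads (-0.016) and with scaling without chromosomes 1, 11, 14, X and Y (-0.031).

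Leaving out each library in turn gave 3201 to 6366 genes for KO against WT ES cells, 0 to 1804 genes and 0 to 4 members for DKO against WT differentiated cells, and 0 to 237 genes and 0 to 1 member for DKO against KO. It gave 2947 to 6121 genes and 2 to 6 members for the overall state comparison, 5 to 9 members within WT, 1008 to 5662 genes and 3 to 8 members within KO and 506 to 4543 genes within DKO. The interactions ranged over 391 to 3890 genes (KO) and 3611 to 6765 genes (DKO).

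The replicate numbers of the ES libraries do not pair them (correlations of deviations -0.01, -0.05 and -0.09 for WT with KO, WT with DKO and KO with DKO). With the replicate block 7, 9 and 9 members and 4786, 7433 and 7856 genes were called.

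Uncalled values also changed sign when 1 library was left out. In ES cells Spred1 in DKO against WT ran from -0.076 to 0.33. Among differentiated cells the ranges were, for KO against WT, -0.24 to 0.40 (Spry1), -0.10 to 0.47 (Spred1) and -1.09 to 0.48 (Dusp5); for DKO against WT, -0.052 to 0.98 (Dusp4) and -0.68 to 0.90 (Dusp5); for DKO against KO, -0.014 to 0.50 (Spred1), -0.51 to 0.16 (Dusp4), -0.15 to 0.89 (Dusp5) and -0.036 to 0.12 (Etv5). Between days they were -0.13 to 0.27 (Spry1), -0.18 to 0.032 (Spry2), -0.085 to 0.81 (Dusp5) and -0.58 to 0.056 (Dusp6). For differentiated against ES cells they were -0.15 to 0.16 (Spred1) and -0.32 to 0.23 (Dusp6), within KO -0.061 to 0.53 (Dusp5) and -0.33 to 0.31 (Egr1), and within DKO -0.67 to 0.40 (Dusp5). For the interactions they were -0.027 to 0.58 (Spry1) and -1.58 to 0.033 (Dusp5) in KO, and -0.20 to 0.72 (Dusp6) and -0.44 to 0.16 (Egr1) in DKO. Where a value moved, the cause was not tested.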
